A study of Mus musculus with 6 samples.

Results

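Myc and 36 further genes of ribosome production, translation initiation, polyamine synthesis and iron uptake were followed in CD4+ T cells from Satb1 conditional knockout (cKO) mice and control mice. The 37 genes were listed by function, as Myc with nucleolar assembly, RNA polymerase I and translation genes known to rise on T cell activation, and were matched by symbol. All 37 were among the 55401 genes of the count tables, and all 37 passed the filter on low counts that left 13364 genes for testing. The Satb1 cKO group held 3 libraries from Satb1 flox/flox CD4-Cre mice, in which loxP-flanked Satb1 is deleted in T lineage cells from the thymus on. The control group held 3 libraries from mice labelled WT, and the sources used here do not say if they had Cre. Both groups shared all other treatment: CD4+ naive T cells were enriched from spleen with magnetic beads and stimulated for 24 h through CD3 and CD28. Age, sex and whether each replicate was a separate mouse are also not stated there, so the p-values reflect the spread of these 6 libraries alone, and that spread may be technical.

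MYC is a transcription factor that binds DNA as a dimer with MAX, at the E-box motif among other sites, and its level climbs soon after a T cell receives an antigen signal. Ribosomes are put together in the nucleolus: RNA polymerase I transcribes the ribosomal RNA precursor, small nucleolar ribonucleoproteins (snoRNPs) modify it, and separate sets of assembly factors build the small and the large subunit. An activated T cell enlarges before it divides, and many genes of these steps are known MYC targets.

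In the Satb1 cKO libraries, Myc and most ribosome assembly genes were modestly higher, Max and Tfrc were lower, and Polr1a, Polr1b and Polr1c of RNA polymerase I did not pass the test. Of the 37 members, 26 rose and 2 fell at an adjusted p under 0.05, which is 70.3% higher and 5.41% lower. Across all 13364 genes tested, 21.6% were called higher and 20.7% lower (42.3% in either direction). Among the 6382 genes with a mean of normalised reads at least that of Mxd4, the member with fewest reads, the shares were 26.9% and 25.5% (52.4% in either direction). The changes were small: the median log2 fold change of members was 0.19, against 0.00338 over all genes tested, and Odc1 alone passed 1.5-fold. The snoRNP and subunit assembly factors with the abundant nucleolar proteins gave 18 of 23 members higher and 0 lower, at a median of 0.20 on the log2 scale. The RNA polymerase I list, which is not among those 23, gave 1 of 4 members higher (25.0%) and 0 lower. Of 16 further RNA polymerase I genes, 7 rose (43.8%) and 0 fell, at a median of 0.17. In bulk RNA, fewer cells of a type and less RNA per cell cannot be told apart, and a difference in total RNA per cell would not show in values scaled to library size.

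**Figure D1:**
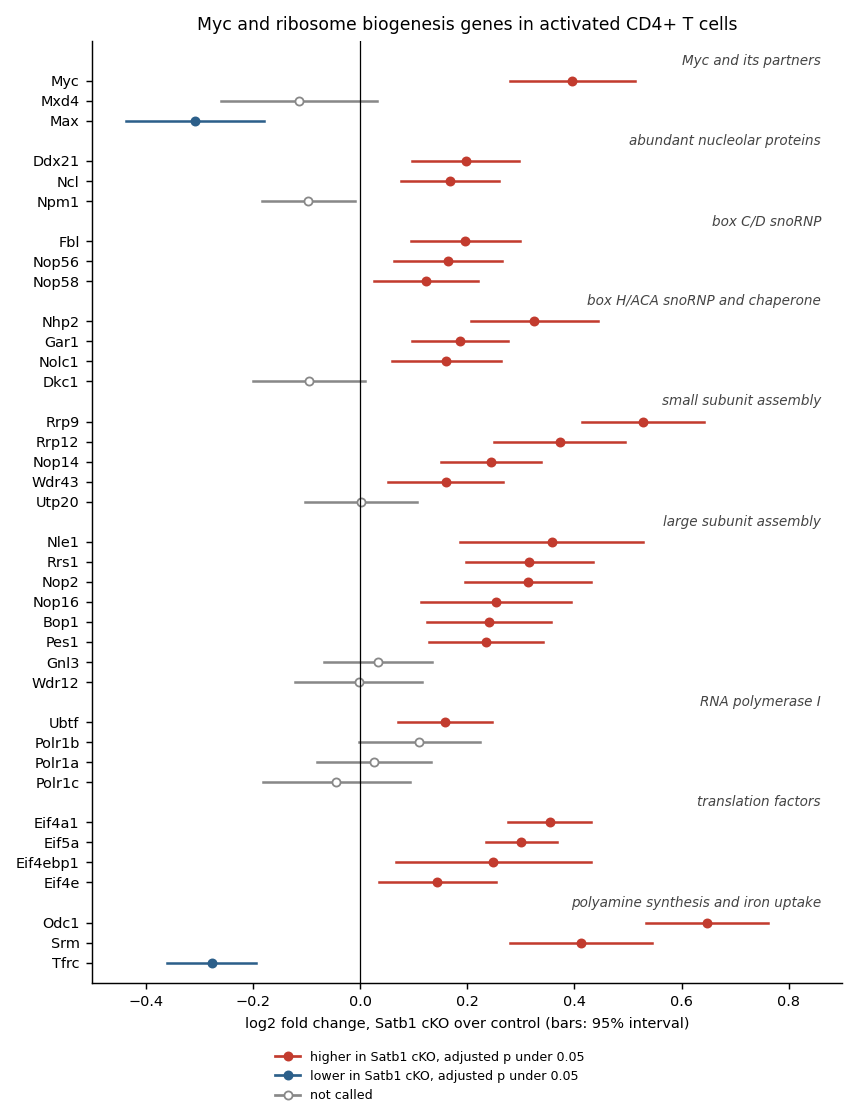
Log2 fold changes of the 37 members, Satb1 cKO over control, with 95% intervals from edgeR (3 libraries a group), grouped by role; red and blue points passed the test and open grey points did not. Most points lie between 0.1 and 0.4, with Odc1 and Rrp9 farthest to the right and Max and Tfrc on the left.

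The libraries held 14895389 to 20266626 reads on genes. Satb1 itself had 426, 546 and 462 CPM (reads on the gene relative to the TMM-scaled library size) in Satb1 cKO replicates 1 to 3, against 712, 851 and 727 CPM in control replicates 1 to 3. All 3 Satb1 cKO libraries lay below all 3 control libraries, although reads over the whole gene can include exons that Cre does not remove. Of 8 T cell markers, 5 were lower and 1 higher in Satb1 cKO (62.5% and 12.5%, against 20.7% and 21.6% of all genes tested). The summed level of these 8 was 2068 to 2099 CPM in Satb1 cKO against 2591 to 2701 CPM in control. Cd4, which defines the labelled cell type, was among the lower ones, with 210, 212 and 204 CPM in Satb1 cKO against 721, 681 and 701 CPM in control. Most of the difference in the summed level came from Cd4 alone. The other markers changed less: Cd2, Lck, Cd3d and Lat were lower (log2 fold changes -0.53, -0.24, -0.23 and -0.12) and Cd5 higher (0.34). Cd3e and Cd3g did not pass the test. Of the 8 red cell markers in the tables, all 7 that could be tested were higher (summed level 310 to 1863 CPM in Satb1 cKO against 24.9 to 31.4 CPM in control), as were all 7 tested of 8 myeloid markers (59.0 to 134 CPM against 15.6 to 17.5 CPM). Further lists were small. B cell markers summed to 9.96 to 12.9 CPM in Satb1 cKO against 3.74 to 7.32 CPM in control (2 of 5 tested higher). Dendritic cell markers summed to 16.1 to 16.8 CPM in Satb1 cKO against 3.84 to 4.70 CPM in control (1 of 2 tested higher). Most of that last difference came from Zbtb46 alone, with a mean of 13.8 CPM in Satb1 cKO against 2.69 CPM in control. Flt3 did not pass the test (means of 1.084 and 1.115 CPM). NK cell markers summed to 21.5 to 25.1 CPM in Satb1 cKO against 6.84 to 10.0 CPM in control (2 of 2 tested higher). Most of that sum came from the 2 tested genes. Eomes had a mean of 11.0 CPM in Satb1 cKO against 5.26 CPM in control, and Prf1 10.9 against 2.69 CPM. Ncr1, Klrb1c and Klra8 had too few reads to be tested. The pair of CD8 genes summed to 22.5 to 29.6 CPM in Satb1 cKO against 17.6 to 21.4 CPM in control (1 of 2 higher). None of the markers in the tables was at 0 in every library. The part of any such cells in the members' differences was not tested.

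Promoter sequence was read for the members because the canonical E-box, CACGTG, is the motif best known for MYC and MAX. RefSeq promoters (GRCm38.p6, 250 bases before to 50 after each start) matched 29 of the 37 members. Bop1, Eif4ebp1, Fbl, Myc, Npm1, Rrp12, Rrs1 and Srm had no window and were not scanned. The motif, which reads the same on both strands, stood in at least 1 window of 10 of those 29 genes (34.5%), against 2187 of 27025 genes with a promoter window (8.09%). The second share covers every gene with a window, whether or not it was read in these cells. A share among genes read as deeply as the members was not computed, so the 2 shares are not matched for level. The motif was found in 7 of 19 members with a window that rose and in 3 of the 10 others (Max, Mxd4 and Utp20). The stretches below surround the motif, in capitals, in the called members that held it, written 5′ to 3′ on the gene's own strand. Mxd4 and Utp20, which were not called, are not shown.
Nop2 (chr6:125131789-125131842, plus strand): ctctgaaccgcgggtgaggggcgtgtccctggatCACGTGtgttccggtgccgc
Pes1 (chr11:3963943-3963996, plus strand): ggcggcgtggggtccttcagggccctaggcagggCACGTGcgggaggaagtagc
Wdr43 (chr17:71616198-71616243, plus strand): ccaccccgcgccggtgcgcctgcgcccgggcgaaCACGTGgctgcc
Nle1 (chr11:82908367-82908406, minus strand): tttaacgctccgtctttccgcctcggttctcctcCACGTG
Eif4a1 (chr11:69672593-69672646, minus strand): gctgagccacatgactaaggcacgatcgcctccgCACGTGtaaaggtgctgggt
Eif5a (chr11:69921441-69921494, minus strand): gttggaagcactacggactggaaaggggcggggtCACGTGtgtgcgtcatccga
Eif4e (chr3:138527170-138527223, plus strand): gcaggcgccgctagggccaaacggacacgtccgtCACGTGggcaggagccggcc
Max (chr12:76962232-76962285, minus strand): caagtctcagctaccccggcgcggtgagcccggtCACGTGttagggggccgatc
The motif began 60 bases before the start in Nop2 (position -60), at position 3 after it in Pes1, at 18 in Wdr43 and at 24 in Nle1. In Max it lay at the start itself (-3). In Eif4a1 it began at -189, and in Eif4e at -64 before the downstream of 2 RefSeq starts, with another copy at -228. In Eif5a it began at -74 or -185, depending on the start, and another copy stood at -178 before a further start. Odc1 and Rrp9, the members with the largest changes, had no such letters in their windows.

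Myc (ENSMUSG00000022346.16, chromosome 15, 61985391 to 61990374, GRCm38) had 645, 627 and 624 CPM in the Satb1 cKO libraries, against 523, 442 and 475 CPM in the control libraries. The groups did not overlap, and the Satb1 cKO libraries lay within a narrow band. Myc rose 1.32-fold (log2 fold change 0.40, SE 0.053, adjusted p = 0.000137). Max, the partner without which MYC does not bind DNA, moved the other way, with 164, 164 and 170 CPM in Satb1 cKO against 185, 217 and 215 CPM in control (log2 fold change -0.31, SE 0.059, adjusted p = 0.00142). Mxd4, which encodes a repressor that competes with MYC for MAX, stood at 24.0, 26.0 and 25.2 CPM in Satb1 cKO and 26.5, 27.8 and 27.1 CPM in control and did not pass the test (log2 fold change -0.11, 95% interval -0.26 to 0.03). Reads of Max per read of Myc, set to a mean of 1 in control, came to 0.589, 0.605 and 0.629 in the Satb1 cKO libraries and 0.820, 1.13 and 1.05 in the control libraries. This ratio was lower in 3 of 3 Satb1 cKO libraries than in any control library, and the exact 2-sided permutation p was 0.1, the smallest that 3 against 3 can give (0.171 adjusted over the 12 ratios computed). Mxd4 relative to Myc was likewise lower in every Satb1 cKO library, at 0.655 to 0.729 against 0.892 to 1.11 in control (exact permutation p = 0.1). Relative to Max, Mxd4 was higher in every Satb1 cKO library, at 1.10 to 1.20 against 0.951 to 1.08 in control (exact permutation p = 0.1). Of 14 tested further genes of the MYC and MAX network, 4 rose and 2 fell (28.6% and 14.3%, against 21.6% and 20.7% of all genes tested). The rises were Ruvbl2 and Ruvbl1, paired ATPases of chromatin remodelling and snoRNP assembly complexes (log2 fold changes 0.33 and 0.33), Mlxip, a partner of the MAX-like protein MLX (0.21), and Fbxw7, which marks MYC for degradation (0.20). Mycbp2, a ubiquitin ligase found as a MYC-binding protein, and Trrap, a co-activator scaffold recruited by MYC, fell (-0.34 and -0.25). Mxd1, Mxd3 and Mxi1, 3 further MAX partners named after their values were seen, did not pass the test (log2 fold changes -0.34, -0.22 and -0.19). Among the 14 tested network genes, 8 had a log2 fold change above 0 and 6 below. Mycn, Mycl and Mlxipl had too few reads to be tested.

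**Figure D2:**
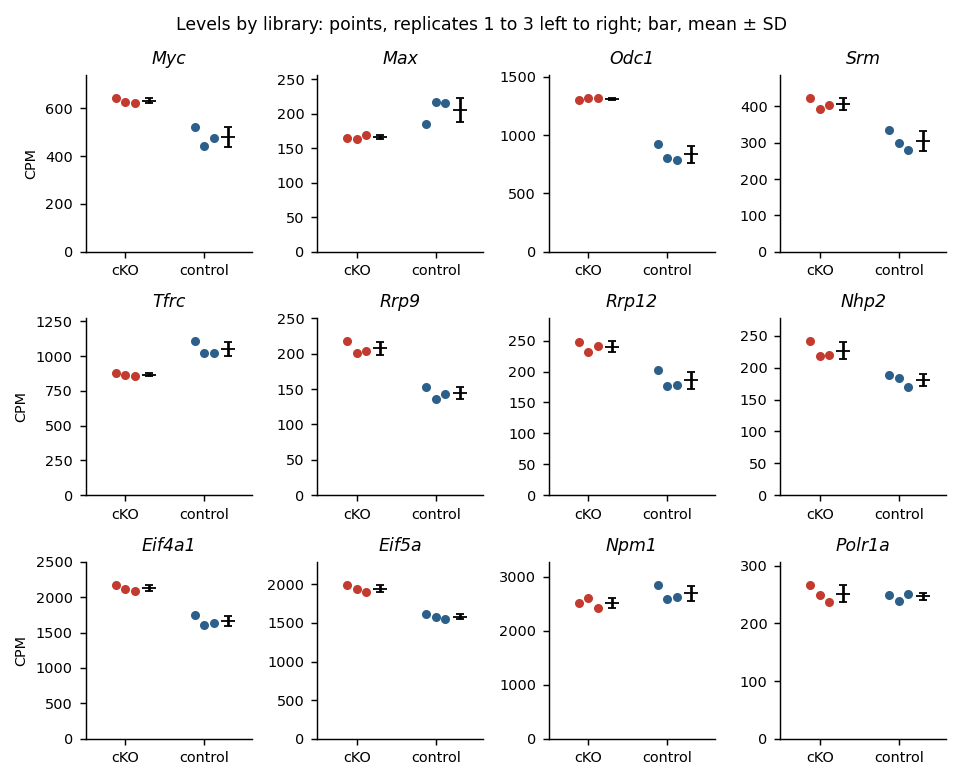
CPM of 12 members in each library, with points for replicates 1 to 3, the mean and SD as bars, and axes from 0. Myc, Odc1, Srm, Rrp9, Rrp12, Nhp2, Eif4a1 and Eif5a were higher in all 3 Satb1 cKO libraries, Max and Tfrc were lower, and Npm1 and Polr1a overlapped between the groups.

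Among the abundant nucleolar proteins, Ncl, encoding nucleolin, had 4123, 3924 and 3762 CPM in Satb1 cKO against 3724, 3369 and 3420 CPM in control. It rose (log2 fold change 0.17, SE 0.042, adjusted p = 0.00762), although the lowest Satb1 cKO library was close to the highest control library. Ddx21, an RNA helicase of ribosomal RNA transcription and processing, rose as well, with 1051 to 1146 CPM in Satb1 cKO against 909 to 1002 CPM in control (0.20, SE 0.045). Npm1, encoding the nucleolar chaperone nucleophosmin, had 2517, 2605 and 2432 CPM in Satb1 cKO and 2855, 2598 and 2625 CPM in control. Its groups overlapped and it did not pass the test (log2 fold change -0.10, 95% interval -0.18 to -0.01, adjusted p = 0.069). Npm1 has near-identical pseudogene copies, and reads aligned to several places were not counted on genes, so its level is uncertain. Npm1 was called lower without Satb1 cKO replicate 2 (adjusted p = 0.0394) and without control replicate 2 (0.041), and Ncl lost its call without control replicate 2 (0.0536).

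All 3 members of the box C/D snoRNP, which guides methylation of ribosomal RNA, rose, where 21.6% of all genes tested did. Fbl, the methyltransferase fibrillarin, had 413, 377 and 374 CPM in Satb1 cKO against 350, 335 and 331 CPM in control (log2 fold change 0.20, SE 0.046, adjusted p = 0.00549). Its scaffold partners Nop56 and Nop58 had log2 fold changes of 0.16 and 0.12 (adjusted p = 0.0131 and 0.0419). No library of one group reached into the other for any of the 3 genes, but the gap was narrow for Nop58, with 473 to 497 CPM in Satb1 cKO against 430 to 473 CPM in control. The proportions between them hardly moved: reads of Nop56 per read of Nop58 came to 1.03 ± 0.033 in Satb1 cKO and 1.00 ± 0.012 in control (SD, n = 3 each, control mean set to 1), and those of Fbl per Nop56 to 1.02 ± 0.037 and 1.00 ± 0.033. Both ratios overlapped between groups (exact permutation p = 0.3 and 0.6). Nop58 lost its call when any library except control replicate 1 was left out (highest adjusted p = 0.179), and Nop56 without control replicate 2 or 3 (highest 0.0793).

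Calls differed among the members of the box H/ACA snoRNP, which guides the conversion of uridine to pseudouridine. Nhp2, an RNA-binding core protein, had 242, 218 and 220 CPM in Satb1 cKO against 189, 183 and 170 CPM in control (log2 fold change 0.32, SE 0.054, adjusted p = 0.000585). Gar1 also rose, with 139 to 144 CPM in Satb1 cKO against 121 to 126 CPM in control (0.19, SE 0.041). Dkc1, the pseudouridine synthase dyskerin that both accompany, had 321, 339 and 323 CPM in Satb1 cKO and 374, 338 and 338 CPM in control and did not pass the test (log2 fold change -0.10, 95% interval -0.20 to 0.01). Relative to Dkc1, reads of Nhp2 came to 1.45, 1.247 and 1.32 in the Satb1 cKO libraries and 0.978, 1.05 and 0.974 in the control libraries, with the control mean set to 1. Those of Gar1 came to 1.27, 1.16 and 1.22 in Satb1 cKO and 0.952, 1.04 and 1.01 in control. Both ratios were higher in 3 of 3 Satb1 cKO libraries than in any control library (exact permutation p = 0.1 each, 0.171 adjusted over the 12 ratios). Nolc1, a nucleolar phosphoprotein that accompanies snoRNPs, rose (log2 fold change 0.16, adjusted p = 0.0157) and lost its call without Satb1 cKO replicate 1 or control replicate 2 or 3 (highest adjusted p = 0.0891). Of 8 further snoRNP genes, 2 rose and 0 fell, and the 25.0% that rose is near the 21.6% of all genes tested. They were Snu13, which binds the box C/D RNA (0.24), and Naf1, an assembly factor of H/ACA particles (0.23).

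**Figure D3:**
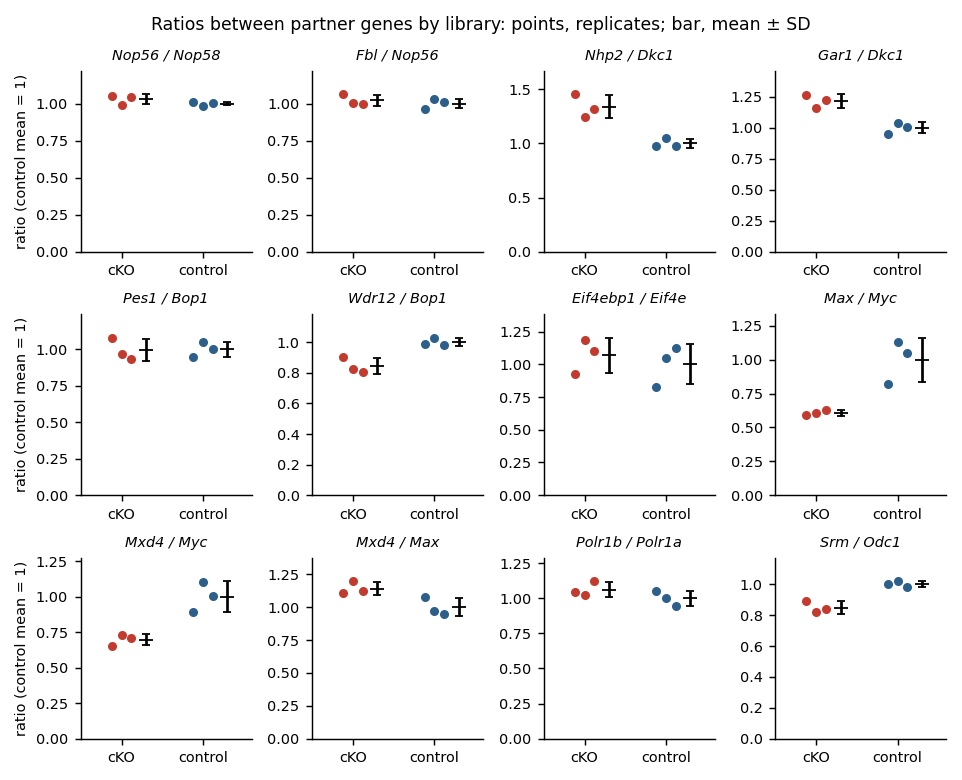
Ratio of reads between 12 pairs of members in each library, scaled to a control mean of 1, with mean and SD as bars and axes from 0. Ratios within the box C/D snoRNP overlapped between groups. Nhp2 and Gar1 over Dkc1 and Mxd4 over Max were higher in every Satb1 cKO library. Max and Mxd4 over Myc, Wdr12 over Bop1 and Srm over Odc1 were lower in every Satb1 cKO library.

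Of the 5 small subunit factors, 4 rose. Rrp9, a protein of the U3 snoRNP that starts the processing of the precursor, had 218, 202 and 204 CPM in Satb1 cKO against 153, 136 and 143 CPM in control. Its rise of 1.44-fold (log2 fold change 0.53, SE 0.052, adjusted p = 1.37e-05) was the largest among the ribosome assembly members, and the groups lay far apart. Rrp12, which takes part in the maturation and export of the small subunit, had 248, 231 and 242 CPM in Satb1 cKO against 202, 177 and 178 CPM in control (0.37, SE 0.056, adjusted p = 0.000285). Nop14 had 171, 176 and 173 CPM in Satb1 cKO against 151, 140 and 148 CPM in control (0.24, SE 0.043), and Wdr43, needed for both transcription and early processing of the precursor, had a log2 fold change of 0.16. Wdr43 lost its call without Satb1 cKO replicate 1 or control replicate 2 or 3 (highest adjusted p = 0.12). Utp20 was at 375 ± 13.5 CPM in Satb1 cKO and 374 ± 21.2 CPM in control (SD, n = 3 each), with a 95% interval of -0.10 to 0.11 for the log2 fold change. Of 45 further small subunit genes, 30 rose and 0 fell (66.7% called, median log2 fold change 0.17). The 4 further small subunit genes of smallest p were Bysl (0.39, SE 0.050), Noc4l (0.31), Ngdn (0.30) and Pno1 (0.38).

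The 8 large subunit factors held 6 that rose. Nle1, whose yeast counterpart is removed from the maturing particle, had 89.2, 87.8 and 94.9 CPM in Satb1 cKO against 80.5, 63.1 and 67.8 CPM in control (log2 fold change 0.36, SE 0.078, adjusted p = 0.00338). Rrs1, which in yeast helps bring the 5S RNA particle into the subunit, had 188, 177 and 181 CPM in Satb1 cKO against 158, 142 and 138 CPM in control (0.32, SE 0.054). Nop2, an RNA methyltransferase, had 352, 321 and 315 CPM in Satb1 cKO against 282, 254 and 260 CPM in control (0.31, SE 0.054). Nop16 (0.25), Bop1 (0.24) and Pes1 (0.23) were the other rises, and no library of one group reached into the other for any of these 6 genes. PES1, BOP1 and WDR12 form one complex, and Wdr12 did not follow, with 122 ± 6.0 CPM in Satb1 cKO and 122 ± 7.03 CPM in control (95% interval of the log2 fold change -0.12 to 0.12). Reads of Wdr12 per read of Bop1, with the control mean set to 1, were 0.907, 0.824 and 0.803 in the Satb1 cKO libraries and 0.987, 1.03 and 0.984 in the control libraries, lower in 3 of 3 Satb1 cKO libraries (exact permutation p = 0.1). Those of Pes1 per Bop1 overlapped (exact permutation p = 0.9). Gnl3, encoding nucleostemin, did not pass the test (0.03, 95% interval -0.07 to 0.13). Of 48 further large subunit genes, 25 rose and 1 fell (52.1% and 2.08%, against 21.6% and 20.7% of all genes tested), with a median of 0.15. The 4 rises of smallest p were Eif6, which keeps the subunits apart until the large one is mature (0.44, SE 0.042, adjusted p = 9.71e-06), Nip7 (0.38), Ebna1bp2 (0.33) and Noc2l (0.27), and Nsa2 fell (-0.12, adjusted p = 0.0303).

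The RNA polymerase I genes were the members with the fewest calls. Ubtf, the factor UBF that opens ribosomal DNA for the polymerase, had 454, 424 and 421 CPM in Satb1 cKO against 393, 386 and 386 CPM in control and rose (log2 fold change 0.16, SE 0.040, adjusted p = 0.00757). Polr1a, the largest subunit, had 267, 249 and 238 CPM in Satb1 cKO and 250, 240 and 251 CPM in control, which overlap widely (0.03, 95% interval -0.08 to 0.13). Polr1b, the partner of Polr1a in the active centre, was at 238 ± 10.6 CPM in Satb1 cKO and 221 ± 12.6 CPM in control (0.11, 95% interval -0.00245 to 0.22, adjusted p = 0.107) and was called higher without control replicate 1 (adjusted p = 0.0175). Polr1c, shared with RNA polymerase III, was at 120 ± 2.04 CPM in Satb1 cKO and 123 ± 12.1 CPM in control (-0.04, 95% interval -0.18 to 0.09; SD, n = 3 each). Of 16 further genes of the polymerase and its initiation factors, 7 rose and 0 fell (43.8% higher, against 21.6% of all genes tested). Their median log2 fold change was 0.17, against 0.07 for the 4 members. The 4 further genes of smallest p included Polr2l and Polr2h, small subunits shared between polymerases (0.38 and 0.24). The others were Taf1a, of the promoter selectivity complex (0.44), and Znrd1, a small polymerase I subunit (0.41).

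All 4 translation members rose. Eif4a1, the helicase that unwinds messenger RNA ahead of the ribosome, had 2176, 2117 and 2090 CPM in Satb1 cKO against 1748, 1612 and 1635 CPM in control, 1.28-fold higher (log2 fold change 0.35, SE 0.035, adjusted p = 1.43e-05). Eif5a, which eases peptide bond formation and carries the amino acid hypusine made from spermidine, had 1994, 1937 and 1897 CPM in Satb1 cKO against 1611, 1572 and 1549 CPM in control (0.30, SE 0.030, adjusted p = 1.7e-05). The groups stood well apart for both. Eif4e, the cap-binding protein, rose less (0.14, SE 0.049, adjusted p = 0.0354), with 232 to 245 CPM in Satb1 cKO against 205 to 230 CPM in control, and lost its call when any library except control replicate 1 was left out (highest adjusted p = 0.157). Eif4ebp1, the inhibitor that holds EIF4E, had 98.3, 121 and 111 CPM in Satb1 cKO and 82.8, 95.7 and 99.9 CPM in control. It was the only called member whose groups overlapped (0.25, SE 0.083, adjusted p = 0.0306), and its call was lost without Satb1 cKO replicate 2 or 3 or control replicate 1 or 2 (highest adjusted p = 0.139). Among 39 other translation factors, 18 rose and 7 fell (46.2% and 17.9%, against 21.6% and 20.7% of all genes tested). Rises included Eif2b3, of the exchange factor that recharges eIF2 (0.52, SE 0.066), and Eif3g, Eif3b and Eif3d of the scaffold eIF3 (0.37, 0.25 and 0.33). Falls included Eif4ebp2, a paralogue of Eif4ebp1 (-0.37, SE 0.040), the poly(A)-binding protein gene Pabpc1 (-0.18), Eif4b (-0.16) and Eif3f (-0.16).

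Polyamine synthesis held the largest rise. Odc1 (chromosome 12, 17544794 to 17551505), the rate-limiting enzyme that makes putrescine and a classical MYC target, had 1300, 1315 and 1319 CPM in Satb1 cKO against 921, 806 and 785 CPM in control. It rose 1.57-fold (log2 fold change 0.65, SE 0.052, adjusted p = 2.88e-06), with a coefficient of variation of 0.765% among the Satb1 cKO libraries and 8.74% among the control libraries. Srm, which turns putrescine into spermidine, had 424, 392.0 and 403 CPM in Satb1 cKO against 336, 299 and 281 CPM in control (0.41, SE 0.061, adjusted p = 0.000258). Reads of Srm per read of Odc1, with the control mean set to 1, were 0.895, 0.818 and 0.837 in the Satb1 cKO libraries and 1.00, 1.02 and 0.981 in the control libraries, lower in 3 of 3 Satb1 cKO libraries (exact permutation p = 0.1). Sms, the next synthase of the pathway, rose too (0.37, SE 0.052). Paox, a polyamine oxidase, and Sat1, the acetyltransferase that starts their breakdown, fell (-0.48 and -0.27), as did Azin1, which shields ODC1 from degradation (-0.26). Smox, a spermine oxidase, rose (0.49, SE 0.118).

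Tfrc, the transferrin receptor through which dividing cells take up iron, fell, with 877, 867 and 858 CPM in Satb1 cKO against 1108, 1020 and 1025 CPM in control (log2 fold change -0.28, SE 0.038, adjusted p = 0.000146). All 3 Satb1 cKO libraries lay below all 3 control libraries. Red cell precursors also carry this receptor, and red cell markers summed to 310, 1863 and 1612 CPM in the same Satb1 cKO libraries against 24.9, 31.4 and 27.6 CPM in control. Their part in the level of Tfrc was not tested. Among other iron genes, Ireb2, which stabilises Tfrc messenger RNA when iron is scarce, fell (-0.20, adjusted p = 0.0123), and Ncoa4, which releases iron from ferritin, rose (0.24). The ferritin gene Ftl1 rose (0.66, SE 0.099), at a level of 28.4 ± 3.68 CPM in Satb1 cKO against 18.0 ± 0.98 CPM in control that is uncertain because the gene has many near-identical copies. Slc40a1, the iron exporter of macrophages, rose at a very low level, 1.39 ± 0.994 CPM in Satb1 cKO against 0.152 ± 0.135 CPM in control (SD, n = 3 each), in libraries where myeloid markers were higher as well. The part of those cells was not tested. Together, 16 further polyamine and iron genes held 7 that rose and 4 that fell (43.8% and 25.0%, against 21.6% and 20.7% of all genes tested).

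**Figure D4:**
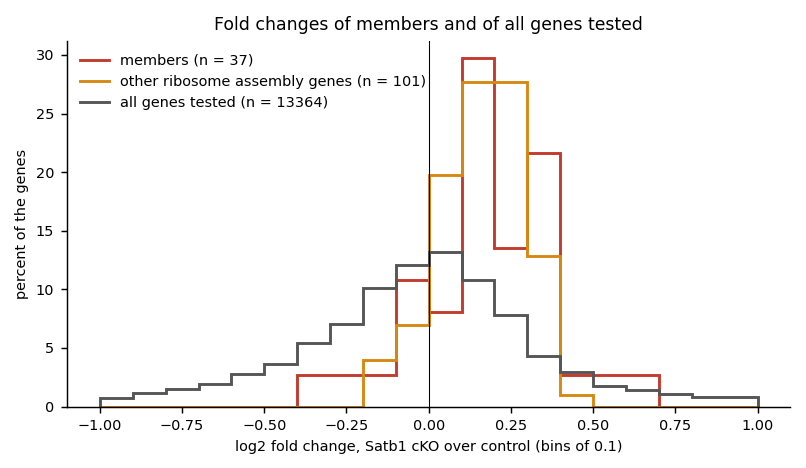
Share of genes in bins of 0.1 of the log2 fold change, Satb1 cKO over control, for the 37 members, 101 other ribosome assembly genes and all 13364 genes tested. The members' curve is highest between 0.1 and 0.2 and again between 0.3 and 0.4, that of the other assembly genes between 0.1 and 0.3, and the curve of all genes is centred on 0.

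Across the 7 lists of further pathway genes together, 93 of 186 tested genes rose and 14 fell (7.53%), against 21.6% and 20.7% of all genes tested. The 101 other ribosome assembly genes held 57 that rose and 1 that fell, and their log2 fold changes ran from -0.12 to 0.44 around a median of 0.15. None of them passed 1.5-fold in either direction, whereas 9.73% of all genes tested did so upwards and 8.85% downwards.

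Members also moved together between libraries of one group. Control replicate 1 was the highest control library for 33 of 37 members (89.2%), against 41.5% of the 6382 genes read at least as deeply as Mxd4. Satb1 cKO replicate 1 was the highest of its group for 25 of 37 members (67.6%), against 32.1% of those genes. These were also the libraries with most reads in their groups, 20266626 and 19023023; the part of depth was not tested. Summed over all members, the level was 22730, 22030 and 21640 CPM in Satb1 cKO against 20730, 19000 and 19180 CPM in control, so that the lowest Satb1 cKO library lay above the highest control library by less than control replicate 1 lay above the other controls. The coefficient of variation of a member had a median of 3.43% in Satb1 cKO and 5.73% in control, against 3.70% and 4.07% over the 6382 genes. With replicate 1 of both groups left out, an alternative chosen after seeing the data, 27 members were called higher and 2 lower. For 25 members all 3 Satb1 cKO libraries lay above all 3 control libraries and for 3 below, whereas 27.0% and 26.5% of all genes tested did so (53.4% in either direction).

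**Figure D5:**
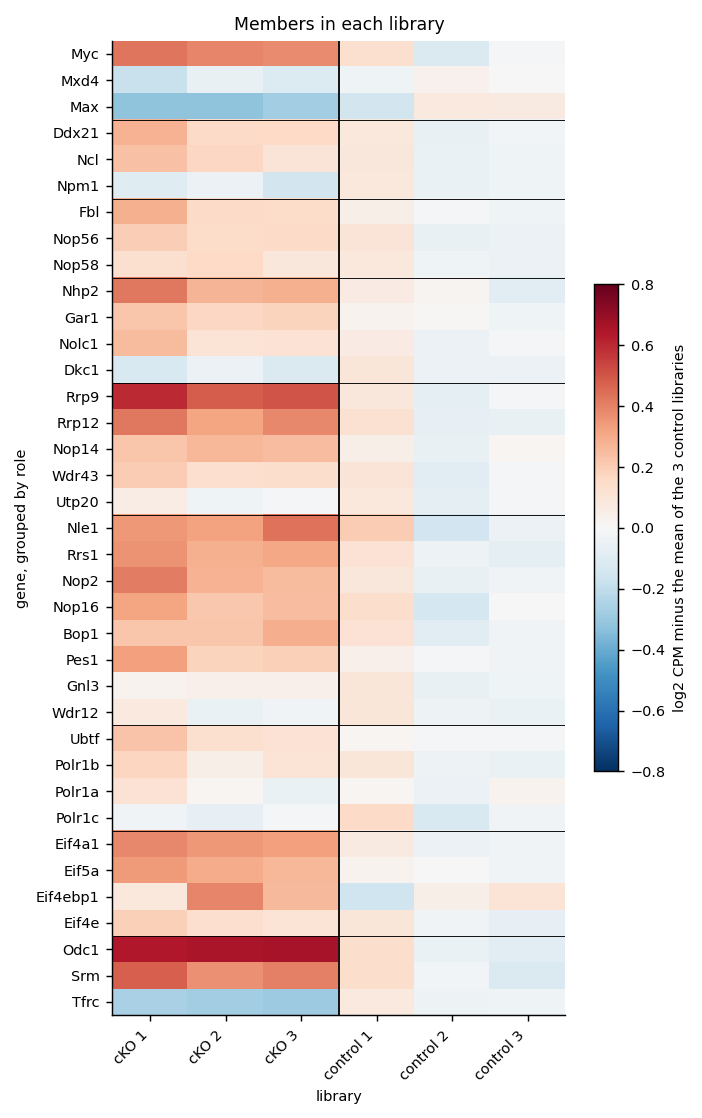
Log2 CPM of the 37 members in each library minus the mean of the 3 control libraries, grouped by role, red for higher and blue for lower. Satb1 cKO columns are red for most genes and blue for Max and Tfrc, and the column of control replicate 1 is slightly red for most genes and blue for Max, Mxd4 and Eif4ebp1.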

How the data were processed

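RNA sequencing libraries were made from total RNA with a commercial kit (VAHTS Universal V6), per the labels' protocols; the strand setting and annotation release are not stated there. The submitters' processing notes name STAR 2.7.3a, HTSeq 0.12.4 and the mm10 build. The authors deposited raw counts, whole reads per gene without normalization, in 1 table per sample. Per the files, 5 summary lines name no gene and were left out: reads on no feature were 7.32% to 7.61% of all reads in Satb1 cKO and 9.18% to 9.50% in control, ambiguous reads 5.40% to 5.57% and reads aligned to several places 2.92% to 3.16% over all libraries.

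Symbols and positions (1-based) came from GENCODE M21 (GRCm38), matched without version on 55141 of 55401 identifiers. Counts were filtered with filterByExpr, scaled by TMM and tested with edgeR 4.0.16 in R 4.3.3 (glmQLFit, glmQLFTest, group as the only term); Benjamini-Hochberg adjustment ran over 13364 genes with a threshold of 0.05. SE came from the fold change and its F statistic. CPM uses TMM-scaled library sizes. The procedure was tested on simulated counts: unadjusted p-values held their level, but the share of false calls ran somewhat above the nominal threshold. A far smaller share of genes was changed in the simulation than was called here, so the share of false calls may differ in these data. Calls with adjusted p-values just under 0.05 are marginal, but they are included in every count of calls given here. Exons of members overlap exons of opposite-strand genes by at most 6.06% of their length (Mxd4). On the same strand, exons of Nop56, Gnl3, Ncl, Eif4a1, Nop58 and Eif4e overlap snoRNA or microRNA genes. A single such gene covers at most 3.32% of a member's exons (Eif4a1), but the first 4 of these members each hold more than 1. Reads falling there may have been counted as ambiguous. Groups came from sample titles. No pair of libraries was identical, and pairs within a group differed by more than sampling noise (chi-square per degree of freedom 2.15 to 7.54).

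Members and lists were chosen with earlier results of these data known. Named genes were Satb1, all members, and up to 4 called genes of smallest p in each direction from each pathway list; Smox is named outside that rule, after its values were seen, as are Mxd1, Mxd3, Mxi1 and the genes too low to test. Alternatives were DESeq2 1.42.0, other scalings, no filter, a replicate block and leaving out each library.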

Additional observations from a re-analysis of the deposited data

How the results depend on the processing

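Under all 12 alternatives, 28 of the 37 members kept their call or lack of one, among them 19 of the 26 that rose and both that fell. The members called higher and lower numbered 26 and 2 with DESeq2, 26 and 2 with RLE scaling, 24 and 3 with upper quartile scaling, and 25 and 3 without a filter on low counts. Leaving out each library in turn gave 19 to 26 higher and 2 to 3 lower, with 19 without control replicate 2; for the further pathway genes it gave 71 to 109 higher and 10 to 15 lower, and for the median log2 fold change of members 0.15 to 0.20. The median log2 fold change of all genes was 0.0026 with RLE scaling, -0.00737 with upper quartile scaling and 0.0149 with DESeq2, which also changes the model. Over all genes tested, deviations of same-numbered libraries correlated at 0.0215, -0.0125 and 0.0279, and Satb1 cKO replicate 1 correlated best with control replicate 2 (0.0458). Among the 37 members, however, replicate 1 was the highest library for 25 in Satb1 cKO and 33 in control. These values cannot decide whether replicate numbers mark pairs, which was not tested for the members alone. With a replicate block, 27 members were higher and 2 lower, and 98 and 15 further pathway genes. The 7 members that rose and lost their call under an alternative had log2 fold changes of 0.12 to 0.25, and no called member changed direction. Npm1 was called lower with upper quartile scaling (adjusted p = 0.0482) and without a filter (0.00452), and Polr1b was called higher with the block (0.0435); the cause was not tested.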
